A study of Mus musculus with 2 samples.

Results

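The genes described here are 36 members of the machinery that fastens cells to the extracellular matrix: 12 integrin alpha subunits, 6 integrin beta subunits, 5 laminin alpha, 3 laminin beta and 2 laminin gamma chains, and 8 cytoplasmic adaptors. They were chosen by name, with each Ensembl gene identifier, its version removed, matched to its symbol in GENCODE M21, and all 36 were found among the 43346 Ensembl genes of the tables. The RNA was that of hearts from B6NCrl mouse embryos 12.5 days old, males and females pooled, with no treatment or mutant allele named. The 2 libraries form 1 group: the labels call them biological replicates 1 and 2 and give them separate tissue samples under 1 donor entry, and whether the embryos came from separate litters is not stated. The input to each was 10 ng of RNA, of molecules over 200 nt, with synthetic spike-ins. With 1 group there is no contrast between conditions and no p-value, and the errors below are the SD over these 2 libraries.

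An integrin is a pair of membrane-crossing chains, 1 alpha and 1 beta, that binds matrix proteins outside the cell and is coupled to actin inside it. Laminins are trimers of an alpha, a beta and a gamma chain that form the sheet of the basement membrane. Talins and kindlins bind the beta tail and switch the receptor on, while ILK and parvin, with PINCH, form a complex at the tail, vinculin ties talin to actin, and paxillin and focal adhesion kinase pass on signals. In the embryonic heart these proteins hold cardiomyocytes, endocardium and epicardium to their matrices. Levels are given in TPM, a transcript's share of all transcripts after its reads are divided by its length, so that genes can be compared with each other.

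The libraries held 34751234 and 31847875 estimated reads, of which 33480066 and 30665239 fell on mouse genes, and the 36 genes took 0.521% and 0.535% of these gene reads. A count of 0 allows up to 3 reads, or 0.0896 and 0.0978 CPM of the gene reads in replicates 1 and 2, counting error only. The markers of heart tissue were present: all 5 cardiomyocyte, 5 endothelial, 5 epicardial and 5 mesenchymal genes looked at were detected, taken as 1 TPM or more in both libraries. Red cell markers were also abundant, summing to 42869 and 38520 TPM, and 3 of 5 leukocyte and 5 of 5 platelet markers were detected. Of all nuclear protein-coding genes 57.5% were detected by the same rule. All 8 liver markers were lower in replicate 2, with sums of 258 TPM in replicate 1 and 72.1 TPM in replicate 2. In whole hearts fewer cells of a type and less RNA per cell cannot be told apart.

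Of the 36 genes 28 were detected, against 57.5% of the 21461 nuclear protein-coding genes. The other 8, Itga7, Itga10, Itga11, Itgb6, Itgb7, Lama1, Lama3 and Lamc3, lay between the limits, below 1 TPM in at least 1 library but not below 0.1 TPM in both. The median member had 19.3 TPM, beside a median of 3.64 TPM over all nuclear protein-coding genes and 18.9 TPM over the detected ones. Levels spanned from Itgb1 at 390.2 and 386 TPM to Itgb6 at 0.12 and 0.14 TPM. In the order of mean levels, 24 of the 35 neighbouring pairs had library ranges that did not overlap, a weak criterion since each range rests on 2 libraries. The 11 unseparated neighbours fell in 6 runs: Lamb1, Lamc1 and Itga6; Itga5, Vcl, Itgav and Parva; Lama2, Itga3 and Itga8; Lamb3 and Itgb4; Lamc3, Lama1 and Itga7; Itga11 and Itga10.

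**Figure D1:**
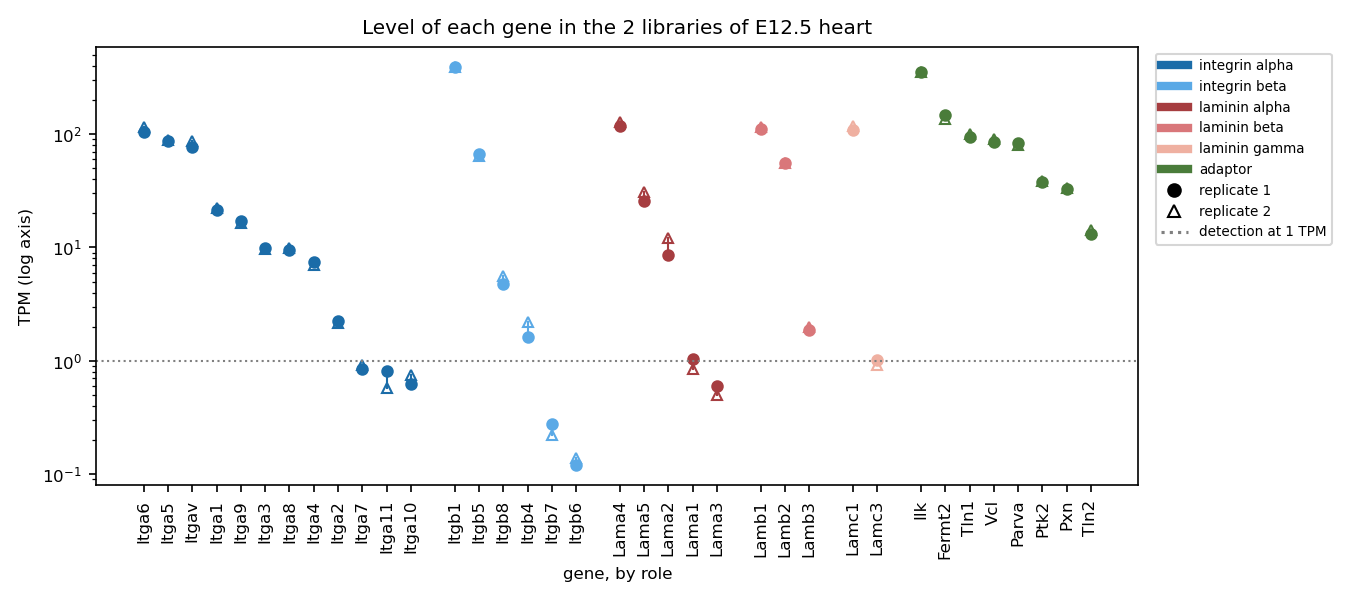
Level in TPM (log axis) of each of the 36 genes, grouped by role and ordered within each role, with a filled circle for replicate 1 and an open triangle for replicate 2; the dotted line marks 1 TPM. Itgb1, Ilk and Fermt2 stand highest, and the 2 libraries lie close together except at low levels and for Lama2, Lama5 and Itgb4.

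Among the integrin alpha subunits, the laminin receptor subunit Itga6 and the arginine-glycine-aspartate receptor subunits Itga5 and Itgav had the highest TPM. Itga6 (ENSMUSG00000027111.11; mm10 chromosome 2, 71745616 to 71858416, plus strand) measured 104 and 116 TPM in replicates 1 and 2, a mean of 109.8 ± 8.80 (SD, n = 2) from 7622 and 7696 reads. Itga5, the fibronectin receptor subunit (ENSMUSG00000000555.6; chromosome 15, 103344286 to 103366763, minus strand), measured 87.3 and 88.9 TPM. Itgav, which pairs with several beta chains (ENSMUSG00000027087.7; chromosome 2, 83724397 to 83806916, plus strand), measured 77.4 and 87.4 TPM, a range that overlaps that of Itga5. These 3 genes made up 31.3% ± 1.006, 25.2% ± 0.895 and 23.5% ± 0.894 (SD, n = 2) of the summed TPM of the 12 alpha subunits. The collagen receptor subunit Itga1 followed at 21.3 and 22.5 TPM, and Itga9, a receptor subunit for tenascin and EMILIN, at 17.2 and 16.3 TPM.

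A group of middle level held Itga3, the other widespread laminin receptor subunit, at 9.88 and 9.61 TPM, the nephronectin receptor subunit Itga8 at 9.53 and 9.86 TPM, and Itga4, which binds VCAM1 and fibronectin, at 7.46 and 7.06 TPM. The ranges of Itga3 and Itga8 overlapped, while Itga4 lay below both. Itga2, a collagen receptor subunit of platelets and epithelia, reached 2.25 and 2.15 TPM. Itga7, the laminin receptor subunit of mature striated muscle, had 0.85 and 0.91 TPM from 79 and 76 reads. The collagen receptor subunits Itga10 and Itga11 were also below 1 TPM, at 0.62 and 0.75 TPM and at 0.82 and 0.58 TPM. Itga6 exceeded Itga7 by 125-fold ± 3.98 and Itga3 by 11.3-fold ± 1.12, and Itga1 exceeded Itga2 by 9.97-fold ± 0.690 (TPM ratios within each library, SD, n = 2). Itga9 exceeded Itga4, with which it shares ligands, by 2.31-fold ± 0.00312.

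Itga6 and Itga3 each have an exon near the 3′ end of the coding sequence whose inclusion gives the A form of the cytoplasmic tail and whose skipping gives the B form. The coding part of each tail is shown because the transcript tables turn on it, from GENCODE M21 transcripts (GRCm38, the same build as mm10), 5′ to 3′ on the gene's strand. The Itga6 A tail lies at chr2:71853534-71853638 and the B tail at chr2:71855854-71856012, both on the plus strand. The Itga3 A tail lies at chr11:95046483-95046590 and the B tail at chr11:95045611-95045763, both on the minus strand. Capitals mark bases identical to the same form of the other gene in a global alignment.
Itga6 A tail: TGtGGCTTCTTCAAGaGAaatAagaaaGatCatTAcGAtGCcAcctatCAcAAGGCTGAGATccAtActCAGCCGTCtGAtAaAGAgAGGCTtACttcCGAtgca
Itga3 A tail: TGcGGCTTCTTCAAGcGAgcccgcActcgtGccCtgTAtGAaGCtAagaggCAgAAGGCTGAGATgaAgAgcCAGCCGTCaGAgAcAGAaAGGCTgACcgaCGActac
Itga6 B tail: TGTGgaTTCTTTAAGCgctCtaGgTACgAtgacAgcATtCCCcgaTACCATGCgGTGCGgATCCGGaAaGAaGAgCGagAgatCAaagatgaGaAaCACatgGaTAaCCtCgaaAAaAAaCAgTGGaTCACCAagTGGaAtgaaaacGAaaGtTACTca
Itga3 B tail: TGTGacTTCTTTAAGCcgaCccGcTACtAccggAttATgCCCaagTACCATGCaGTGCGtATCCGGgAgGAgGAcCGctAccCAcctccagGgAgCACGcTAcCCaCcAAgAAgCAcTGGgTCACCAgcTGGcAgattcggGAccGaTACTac
The A tails of the 2 genes share identical bases in 65 of 108 alignment columns (60.2%) and the B tails in 92 of 159 (57.9%). The A and B tails of Itga6 share 70 of 168 (41.7%) and those of Itga3 72 of 161 (44.7%). These percentages do not rank the pairs, because gaps count as columns and the A and B tails differ in length. The A and B tails have 105 and 159 nt in Itga6 and 108 and 153 nt in Itga3.

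Listed Itga6 transcripts that contain the A exon, 130 nt at chr2:71853534-71853663, measured 50.5 and 57.1 TPM, or 49.0% ± 0.353 (SD, n = 2) of the gene. Those that span and skip it measured 38.8 and 42.9 TPM, or 37.2% ± 0.355, and the remaining 13.8% did not reach it. Of the full-length coding transcripts, the A form Itga6-201 was assigned 4908 and 4960 reads and the B form Itga6-202 48.9 and 0 reads. The skipping signal came almost wholly from Itga6-203, a noncoding partial transcript of 2721 nt with 2374 and 2403 reads, which has a long 3′ stretch of its own. Reads from a full-length B form could be assigned to that transcript, so the proportion of A to B tails is not settled by these tables. In Itga3 the transcripts containing the exon, 142 nt at chr11:95046449-95046590, held 56.4% of the gene's TPM in replicate 1 and 85.8% in replicate 2, and the skipping transcript held 31.2% and 7.60%. The A tail was the larger class in both libraries, but its share differed widely between them. The B form Itga3-203 was assigned 334 and 71.9 reads, with posterior SDs of 98.7 and 55.1 reads. Itga7 has a single listed transcript, so its forms cannot be told apart.

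Itgb1, the common beta partner of most alpha subunits, was the most abundant of the 36 genes. It measured 390.2 and 386 TPM (388 ± 2.89, SD, n = 2; ENSMUSG00000025809.11; chromosome 8, 128685654 to 128733200, plus strand) from 33109 and 29806 reads. It made up 84.2% ± 0.159 of the TPM of the 6 beta subunits. Itgb5, a partner of the alpha v chain, followed at 67.2 and 63.9 TPM, and Itgb8, which with alpha v activates latent TGF-beta, at 4.78 and 5.58 TPM. Itgb4, the hemidesmosome subunit that pairs with Itga6 in epithelia, had 1.61 and 2.18 TPM. Itgb7, a leukocyte subunit, had 0.28 and 0.22 TPM from 17 and 12 reads, and the epithelial Itgb6 had 11 and 10 reads. Itgb1 exceeded Itgb5 by 5.92-fold ± 0.168 and Itgb4 by 209.7-fold ± 46.1, and Itgb5 exceeded Itgb8 by 12.8-fold ± 1.85 (TPM ratios, SD, n = 2). Against the summed TPM of the 12 alpha subunits, 338 and 362, the ratio of Itgb1 was 1.11 ± 0.0616.

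The tail of Itgb1 also has forms: the common A form, and the D form of mature striated muscle, which includes an extra exon. Both tails are shown because the listed transcripts separate them, from GENCODE M21 on GRCm38, plus strand, 5′ to 3′. The A stretch lies at chr8:128732023-128732085 and the D stretch at chr8:128726983-128727054. Capitals mark the in-frame runs that code for the NPxY motifs, the docking sites of talin and kindlin, of which each form has 2.
Itgb1 A tail: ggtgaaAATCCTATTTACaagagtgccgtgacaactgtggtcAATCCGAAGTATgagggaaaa
Itgb1 D tail: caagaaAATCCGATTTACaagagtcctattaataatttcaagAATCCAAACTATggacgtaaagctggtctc
Over the 72 columns of their alignment 41 bases are identical (56.9%). Transcripts that span and skip the D exon, 81 nt at chr8:128726983-128727063, held 96.4% ± 0.547 of Itgb1 TPM, nearly all in the full-length Itgb1-201. A partial transcript of 711 nt, Itgb1-204, was alone in containing the D exon, at 15.5 and 12.5 TPM or 3.60% ± 0.509. It shares other exons with the A form, so the 224 and 164 reads assigned to it are not a count of D-exon reads.

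The laminin chains with the highest levels were alpha 4, beta 1 and gamma 1. Lama4, the alpha chain of endothelial basement membranes (ENSMUSG00000019846.7; chromosome 10, 38965515 to 39110188, plus strand), measured 117 and 128 TPM from 12378 and 12345 reads. It made up 75.4% ± 1.61 (SD, n = 2) of the TPM of the 5 alpha chains. Lama5, a widespread alpha chain, measured 25.8 and 30.9 TPM, and Lama2, the alpha chain of muscle fibres, 8.5 and 11.99 TPM. Lama1, the chain of early embryonic basement membranes, was at 1.03 and 0.85 TPM and the epithelial Lama3 at 0.60 and 0.50 TPM. Lama4 exceeded Lama5 by 4.33-fold ± 0.290 and Lama2 by 12.2-fold ± 2.22, and Lama5 exceeded Lama1 by 30.7-fold ± 7.99.

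Lamb1 measured 111 and 116 TPM (ENSMUSG00000002900.11; chromosome 12, 31265234 to 31329644, plus strand), and Lamb2, the beta chain of vessels and of synaptic basement membranes, measured 55.8 and 55.9 TPM. Lamb1 exceeded Lamb2 by 2.04-fold ± 0.0622, and the epithelial Lamb3 had 1.87 and 1.99 TPM. Lamc1 measured 109 and 118 TPM (ENSMUSG00000026478.10; chromosome 1, 153218922 to 153332786, minus strand), against 1.02 and 0.91 TPM for Lamc3, a 118-fold ± 16.0 difference. Lamb1 and Lamc1 had overlapping ranges. Lamc1 stood at 0.700 ± 0.0186 of the summed alpha chains, and the beta chains together at 1.5 ± 0.0474 of the 2 gamma chains (TPM ratios, SD, n = 2).

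All 8 adaptors were detected, and Ilk was close in level to Itgb1. Ilk, the pseudokinase at the core of the ILK complex (ENSMUSG00000030890.11; chromosome 7, 105736592 to 105742925, plus strand), measured 348 and 354 TPM, and its partner Parva measured 82.7 and 80.4 TPM, a 4.31-fold ± 0.131 difference. Fermt2, the kindlin of most adherent cells, measured 146 and 136 TPM. Tln1 measured 94.7 and 99.4 TPM and Tln2, the talin more specific to muscle and brain, 13.1 and 14.1 TPM, a 7.12-fold ± 0.127 difference. Vcl measured 84.8 and 89.8 TPM and exceeded Pxn, at 33.0 and 33.6 TPM, by 2.62-fold ± 0.0689. Ptk2, which codes for focal adhesion kinase, had 37.7 and 38.6 TPM. Exons of 3 of these genes overlap genes on the opposite strand in the annotation. These are Taf10 (2086 and 1688 reads) and Rrp8 (1108 and 1040) for Ilk, Ap3m1 (5230 and 4788) for Vcl and Creb3 (1759 and 1624) for Tln1. No source used here says whether the counting used strand, so reads in the shared stretches cannot be told apart.

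Of the 20 pairs of related genes compared, 17 had the gene named first higher, 2 had the other higher (Itga9 over Itga4 and Lama4 over Lama5), and Itga5 and Itgav were not separated, with a ratio of 1.07 ± 0.0788. The pairs include adaptor paralogs outside the 36 genes. Fermt2 exceeded Fermt3, the kindlin of blood cells, by 17.7-fold ± 3.29, and Parva exceeded Parvb by 7.45-fold ± 0.235. Lims1 and Lims2, the PINCH proteins that complete the ILK complex, differed by 29.3-fold ± 2.24 with Lims1 higher. Fermt1, the epithelial kindlin, had 2 and 5 reads, and no ratio is given against it.

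For several members the TPM rested largely on short listed transcripts, which need few reads to reach a high TPM. The transcript tables were examined for the 18 members that reached 10 TPM and listed 2 or more transcripts holding 1% of the gene. The leading transcript held 50% or more of the gene's TPM in 14 of the 18, against 74.2% of the 5999 genes that met the same conditions. It was the same in both libraries in 18 of 18, against 94% of those genes, and the median leading share was 70.5% for the members and 67.1% for all. The leader was the longest coding transcript in 16 of 18, the exceptions being Ilk and Itgav, against 55.4% of the same genes and 56.3% of the 5903 protein-coding ones among them. Ilk-212, of 1752 nt, held 41.5% ± 2.33 of Ilk TPM, and Ilk-201, of 1795 nt, 31.4% ± 2.45. Their read counts carried posterior SDs of 318 to 399 and of 316 to 388 reads, so the division between them was uncertain.

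The leader of Itgav was Itgav-205, a partial transcript of 463 nt at the 3′ end of the gene. It held 46.9 and 51.9 of the gene's TPM, or 60.0% ± 0.884 (SD, n = 2), from 403 reads in each library, which is 9.35% of the gene's reads. The full-length Itgav-201, of 7054 nt, held 18.8% ± 1.10 of the TPM and 56.0% of the reads. In Lama5 the full-length Lama5-201, of 11388 nt, held 32.3% ± 3.26 of the TPM and 92.1% of the reads, while 3 transcripts of 451 to 734 nt near the 3′ end held 20.5% to 24.0% of the TPM each. In Fermt2 the full-length Fermt2-201 held 45.4% ± 4.17 and Fermt2-204, of 816 nt, 38.3% ± 1.79 of the TPM, with 15.4% of the reads for the latter. Short transcripts also took 33.7% of the TPM of Lamc1 (Lamc1-204, 8.46% of reads), 29.5% of that of Tln1 (Tln1-202, 4.73% of reads), 28.0% of that of Lama2 (a retained-intron transcript of 643 nt, 2.55% of reads) and 22.8% of that of Lama4 (Lama4-207, 2.09% of reads). These did not all lie at the 3′ end: the middle of Tln1-202 was 5.37% of the way along the gene from its 5′ end and that of Fermt2-204 was 38.1% along. A transcript under 1500 nt held at least 10% of the TPM in 10 of the 20 members at 10 TPM with a coding transcript of 3000 nt or more, against 32% of the 3956 such genes.

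**Figure D2:**
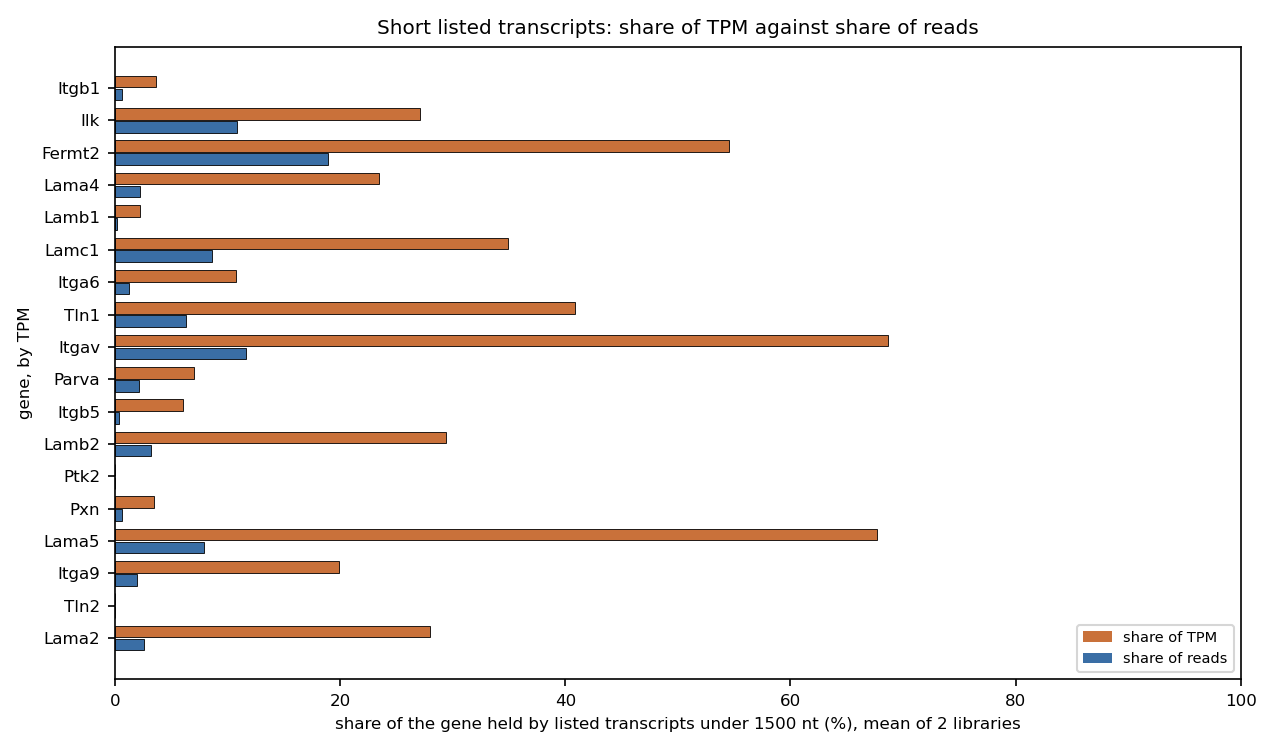
Share of each gene held by listed transcripts under 1500 nt (x axis, percent, mean of the 2 libraries), as a share of its TPM (orange) and of its reads (blue), for the 18 members whose transcripts were examined, ordered by TPM. The orange bars are far longer than the blue ones for Itgav, Lama5 and Fermt2, and both bars are at 0 for Ptk2 and Tln2.

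Because of this, a level on the length of the full transcript was set beside the TPM: the gene's reads over the effective length of its longest protein-coding transcript, rescaled to the same total as TPM. Over all 12344 detected nuclear protein-coding genes the median ratio of TPM to this full-length level was 0.933, a log2 shift of −0.10. Relative to that median the ratio passed 1.5 in 4 of 28 detected members, against 14.5% of those genes. These were Itgav at 2.82, Lama5 at 2.71, Fermt2 at 1.69 and Lama2 at 1.51, with Tln1 just under the limit at 1.499. On the full-length scale Itga5 was at 98.9 and 101 and Itgav at 29.6 and 33.1, so that the ratio of Itga5 to Itgav, 1.07 in TPM, became 3.19 ± 0.216 (SD, n = 2), with ranges that no longer overlapped. Itgav moved from rank 11 to rank 16 of the 36, Fermt2 from 3 to 9, Tln1 from 8 to 12 and Lama5 from 17 to 20, while Itga5 moved from 9 to 5 and Vcl from 10 to 6.

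The order within the laminin alpha, beta and gamma chains and the direction of every pair other than Itga5 and Itgav were the same on both scales, with different sizes. Between chain types the order was not: Lamb1, at 115 and 118 on the full-length scale, lay above Lama4, at 99.8 and 110.1, whereas Lama4 had the higher mean TPM. Lama4 made up 83.9% ± 0.0198 of the alpha chains in place of 75.4%, and Lama5 8.98% ± 0.272 in place of 17.4% ± 0.796. Lama4 exceeded Lama5 by 9.35-fold ± 0.285 in place of 4.33-fold. Fermt2 exceeded Fermt3 by 9.82-fold ± 1.22 in place of 17.7-fold, and Lims1 exceeded Lims2 by 14.6-fold ± 1.68 in place of 29.3-fold. Lama5 exceeded Lama1 by 10.6-fold ± 1.80 in place of 30.7-fold, and Tln1 exceeded Tln2 by 4.97-fold ± 0.0195 in place of 7.12-fold. Lamb1 exceeded Lamb2 by 2.53-fold ± 0.0365. Itgb1 exceeded Itgb4 by 295.6-fold ± 63.2 in place of 209.7-fold. Of the integrin alpha subunits Itga5 made up 34.0% ± 0.960, Itga6 31.3% ± 1.17 and Itgav 10.7% ± 0.422. Itgb1 stood at 1.45 ± 0.0635 times the summed alpha subunits, and its own level was 427 and 426, against 318 and 323 for Ilk. Why reads were assigned to the short transcripts was not tested, and the full-length level was chosen after the TPM had been seen.

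**Figure D3:**
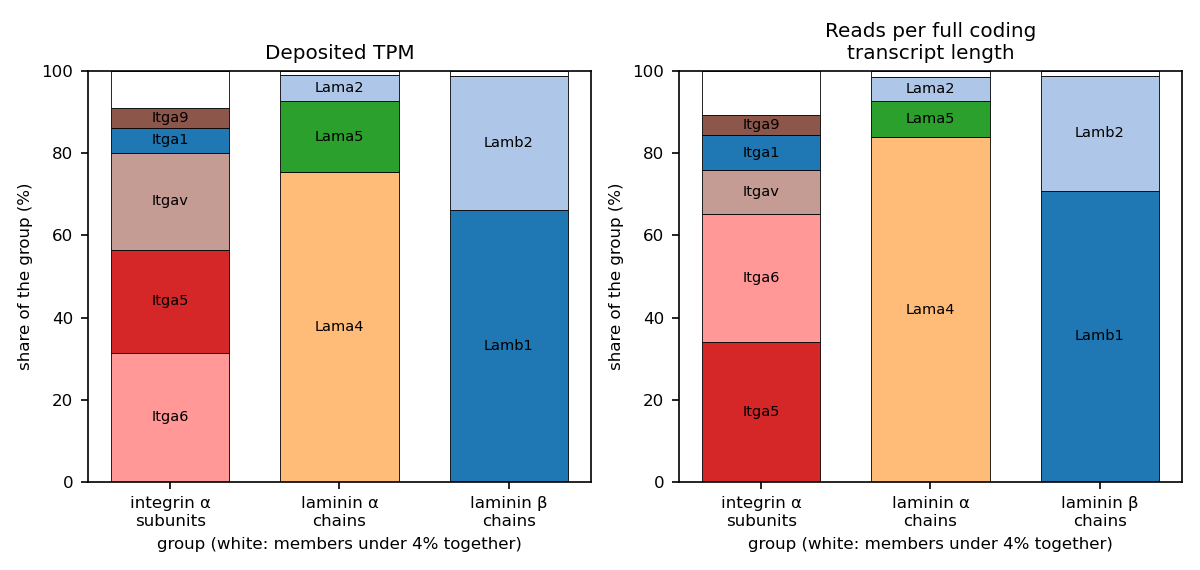
Mean share (y axis, percent) of each member in the summed level of the integrin alpha subunits, laminin alpha chains and laminin beta chains, in deposited TPM (left) and in reads per length of the full coding transcript (right); white holds members under 4% together. Itgav falls from 23.5% to 10.7% of the integrin alpha subunits and Lama5 from 17.4% to 8.98% of the laminin alpha chains between the scales.

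Between the libraries most members differed little. Of the 34 members with a mean of 20 reads or more, 2 differed by more than 0.32 on the log2 scale in CPM, reads as a share of the library scaled by edgeR's TMM factors, against 11.9% of the 15146 genes with that many reads. Both were lower in replicate 2 (6.11% of all genes) and 0 were higher (5.82%). These shares are not at like depth, since the median of mean reads was 2721 for the members and 778 for all genes. At a mean of 100 reads or more, 1 of 31 members differed by that much, against 3.77% of genes. The median log2 difference of replicate 2 over replicate 1 was 0.01 over the members and −0.01 over all genes, and the median size was 0.07 and 0.08. Itga11 had 2.82 and 1.95 CPM from 94 and 60 reads, a log2 difference of −0.53. Itgb4 had 6.5 and 4.68 CPM from 217 and 144 reads, a log2 difference of −0.47, whereas its TPM was higher in replicate 2 by 0.44 on the log2 scale. The gene length used for its TPM was estimated as 5817 nt in replicate 1 and 3191 nt in replicate 2. Lama2 stood apart on the other side, with 38.6 and 47.1 CPM (log2 difference 0.29) and a TPM log2 difference of 0.50. The liver markers were lower in replicate 2 as well, and their part in these differences was not tested.

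**Figure D4:**
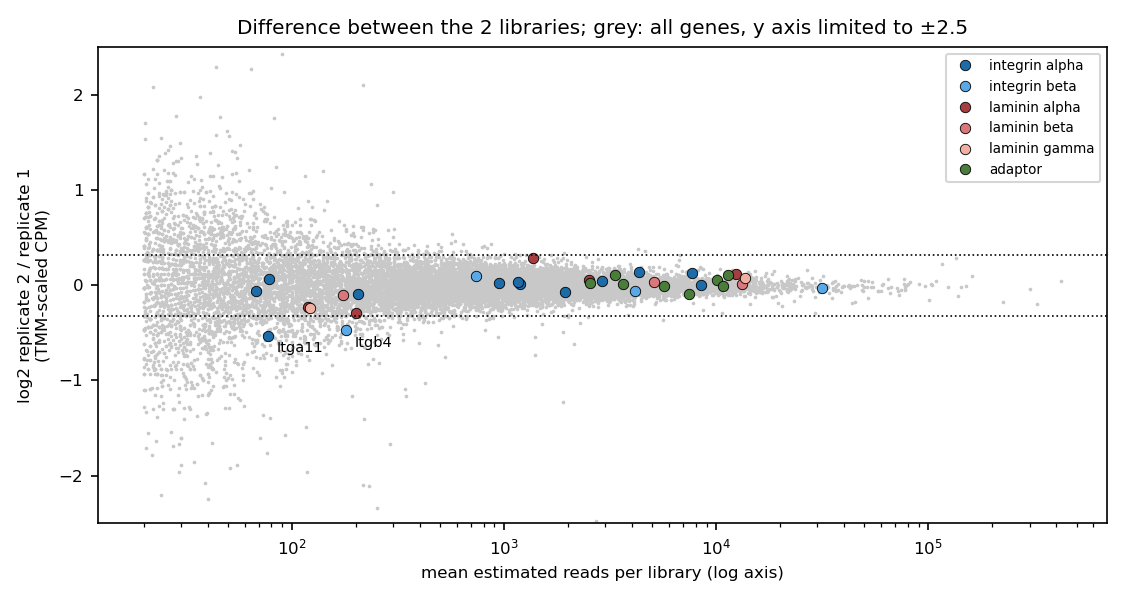
Log2 ratio of replicate 2 over replicate 1 in TMM-scaled CPM (y axis, limited to 2.5 either way) against mean estimated reads per library (x axis, log), with all genes in grey, the 34 tested members coloured by role and dotted lines at 0.32 either way. Itga11 and Itgb4 lie below the lower line, and the members with the most reads lie near 0.

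The wider list of basement membrane and ligand genes, which includes the cell-surface proteins Dag1 and Vcam1, held 22 genes. Of these 19 passed 1 TPM in both libraries, against 57.5% of all nuclear protein-coding genes. The median of the list was 61.05 TPM, against 3.64 TPM over all nuclear protein-coding genes. Fibronectin, Fn1, was the highest at 339.6 and 364 TPM. The basement membrane network was represented by Col4a1 at 187 and 201 TPM, Col4a2 at 95.9 and 105 TPM, the nidogens Nid2 at 159 and 160.5 TPM and Nid1 at 70.5 and 73.4 TPM, and the proteoglycan Hspg2 at 42.2 and 49.8 TPM. Col18a1 measured 220.3 and 229.6 TPM, and Dag1, the dystroglycan that binds laminin beside the integrins, 154 and 162 TPM. Ligands of particular subunits were also present: Emilin1 for Itga9 at 155 and 148 TPM, Vcam1 for Itga4 at 53.7 and 56.4 TPM, and nephronectin, Npnt, for Itga8 at 19.4 and 20.5 TPM. Col4a3, Col4a4 and Vtn did not pass in both libraries. Vtn, made mainly by liver, was at 2.99 and 0.37 TPM, beside the liver marker sums of 258 and 72.1 TPM.

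Ntn1, a guidance molecule with a laminin-like domain, measured 31.4 and 33.9 TPM. Of 9 integrin subunits outside the 36 genes 3 were detected, against 57.5% of all nuclear protein-coding genes. These were Itga2b at 13.5 and 18.4 TPM, its partner Itgb3 at 7.84 and 9.67 TPM, and the leukocyte subunit Itgb2 at 2.01 and 1.19 TPM. Itga2b and Itgb3 form the platelet fibrinogen receptor, and all 5 platelet markers, Itga2b among them, were higher in replicate 2, summing to 89.8 and 119 TPM. The 5 leukocyte markers summed to 94.5 and 102 TPM, most of it from Lyz2 at 73.8 and 80.6 TPM. Fcer1g was at 12.5 and 13.4 TPM, Csf1r at 6.87 and 6.52 TPM, Ptprc at 0.68 and 1.00 TPM and Itgam at 0.67 and 0.31 TPM. The part of blood cells in the levels of these subunits was not tested.

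Of 34 further adaptors and signalling genes 31 passed 1 TPM in both libraries, against 57.5% of all nuclear protein-coding genes. The exceptions were Parvg, Fermt1 and Tns4. The list's median was 28.4 TPM, against 3.64 TPM over all nuclear protein-coding genes and 18.9 TPM over the detected ones. The actin crosslinker Flna measured 185 and 183 TPM, the Z-disc protein Ldb3 180 and 188 TPM, and the focal adhesion proteins Zyx 166 and 168 TPM and Tgfb1i1 165 and 160 TPM. Lims1 measured 129.8 TPM in both libraries and its partner Rsu1 120.5 and 129 TPM, both between Fermt2 and Tln1 in level. The muscle protein melusin, Itgb1bp2, which binds the Itgb1 tail, measured 43.1 and 44.7 TPM. The kinase Src was at 8.97 and 10.9 TPM, below Ptk2 in both libraries.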

How the data were processed

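Total RNA of E12.5 mouse hearts was measured in 2 libraries of 1 group; extraction was by mirVana, and a SMARTer low-input manual is cited, per the labels' protocols. The deposited notes give mm10 and GENCODE M4. No source used here names the aligner or quantifier, or says how strand and ribosomal RNA were handled. The deposited expected counts are estimated reads per gene or transcript. The deposited TPM values are shares per length over all listed features, spike-ins included, and the deposited FPKM values are scaled by length and library. The deposited percent values give each transcript's share of its gene. Spike-ins held 3.66% and 3.71% of reads and stayed out of gene totals.

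Names, coordinates and sequences came from GENCODE M21 (42462 of 43346 gene identifiers matched). Levels, ratios within a library and transcript shares were computed from TPM. A direction was given where the 2 library ranges did not overlap. Rounded counts gave TMM factors with edgeR 4.0.16 and size factors with DESeq2 1.42.0 (R 4.3.3). Other steps used Python 3.11.15, numpy 2.4.6, pandas 2.3.3, Biopython 1.88 and matplotlib 3.10.9. The range rule for pairs was tried on simulated data, as was the rule for differences between libraries, with total counts in place of TMM factors. With 2 values to a range, the range rule can also separate genes of equal level. Genes scored in the trial of library differences had many more reads than Itga11 and Itgb4, so that trial does not bear on those calls. The remaining steps were not tried on simulated data.

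The members, lists and pairs were chosen with earlier results of these data known. All 36 members are accounted for; list genes were named at 1 TPM or more in both libraries. Exceptions are the few list and marker genes named for missing that level, and the overlapping Taf10, Rrp8, Ap3m1 and Creb3, taken from the annotation. These exceptions were chosen after their values were seen. A further list result is not reported here. Alternatives covered units, scaling, thresholds, pseudocounts, size factors and each library alone.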

Additional observations from a re-analysis of the deposited data

How the results depend on the processing

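The count of detected members, 28 of 36, was 34 at 0.5 TPM, 26 at 2 TPM and 24 at 5 TPM, 29 in posterior mean TPM, and 28 to 30 with either library left out. Rescaled over nuclear protein-coding genes alone, levels of all 36 members were higher (Itgb1 at 486, Itga6 at 138) and 31 passed. Pairs with the gene named first higher numbered 17 to 18 of 20 under the alternatives that used both libraries. With either library left out they numbered 18, but 1 library has no range, so any unequal pair was called. Itga5 and Itgav were separated in reads without length (1.96) and on the full-length scale (3.19). Their ranges also came apart in FPKM, but at the same ratio as in TPM (1.07), since only the scaling between libraries differs. Members with a leading transcript of 50% or more numbered 14 of 18 in TPM, 17 of 17 by reads, 14 of 18 without replicate 1 and 13 of 17 without replicate 2. The 2 members past 0.32 (log2) between libraries became 1, Itgb4, at a mean of 100 reads (1 of 31, against 3.77% of genes) and 0 at 1.5-fold (against 4.93%). In deposited TPM they were 3, with Lama2 (against 13.9%), and Itgb4 lay in the other direction, at 0.44 in place of −0.47 (log2). Without a filter they were 3, with Itgb7 (against 28.3%). The order of levels gave no value with a library left out, since 1 library has no range. Of the 24 neighbouring pairs separate in TPM, 4 reversed on the full-length scale: the ratios were 0.852 for Fermt2 over Lama4, 0.899 for Lama4 over Lamb1, 0.695 for Tln1 over Itga5 and 0.452 for Lama5 over Itga1. In posterior mean TPM 2 reversed, Itga2 over Lamb3 (0.686) and Itgb7 over Itgb6 (0.426). None could reverse in FPKM or when rescaled over protein-coding genes, since each multiplies every gene of a library by the same constant. None of the 20 gene pairs reversed under the alternatives run. FPKM and the pseudocounts could not have reversed a pair. Each library alone could have reversed only Itga5 over Itgav, whose ranges overlap, and the ratio was 1.13 in replicate 1 and 1.02 in replicate 2. Posterior mean TPM, reads without length and the full-length scale could have reversed any pair. Members under 1 TPM in both libraries rest on 10 to 133 reads, and those above 10 TPM on at least 1287. No paired analysis was possible because the series has 1 group.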
